A study of Danio rerio with 12 samples.

Results

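Calcineurin is a protein phosphatase switched on by calcium, and the rcan genes encode small proteins that bind it. The genes described here are the zebrafish (Danio rerio) genes named ppp3ca, ppp3cb, ppp3cca and ppp3ccb, which encode its catalytic subunit, and rcan1a, rcan1b, rcan2 and rcan3, which encode its regulators. They were picked by gene name, and 7 of the 8 names were found among 50640 genes. No gene carries the name rcan1b, which was not analysed here. A further gene named RCAN1 (1 of many), on an unplaced scaffold, is listed at 0 in every library and was not counted among them. The names were proposed with results from these libraries already known, so the levels of these genes are a description. Their p-values are not printed. Intervals, and statements of which side of a threshold a gene lies on, are given as description only and not as evidence.

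The data are RNA sequencing of hearts of zebrafish aged 6, 12, 24 and 36 months, each age with 3 libraries (12 altogether). The fish were kept under standard conditions with no treatment or genetic change named, and the series follows the ageing of the heart. Total RNA was extracted with Trizol from the removed hearts. The labels do not give strain, sex, the hour of collection or whether a library is 1 heart or a pool, so tests measure only the spread between these libraries, which may be technical.

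In the heart, calcium bound to calmodulin opens the catalytic subunit, and calcineurin then removes phosphates from NFAT transcription factors, which move into the nucleus. In mammals a constantly active calcineurin enlarges the heart, and the drugs cyclosporin and FK506 act by blocking the enzyme. RCAN proteins bind the catalytic subunit and, when abundant, inhibit it, and in mammals RCAN1 is itself switched on by NFAT, which forms a feedback loop.

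Levels are in FPKM, fragments per kilobase of gene scaled to the size of the library, as deposited, so levels of different genes can be compared per length. The values step in whole reads, and 7333060 to 11145869 reads fell in genes per library. A test was run with limma on log2(FPKM + 1) of the 16223 genes with a mean of at least 1 FPKM, and a gene is called past the threshold at an adjusted p of 0.05. Replicate 1 of 6 months stands apart from its group: on the first principal component, which carries 21.9% of the variance, it lies at -4.07, against -40.8 and -34.7 for the other libraries of that age. It lies near the libraries of 24 months on that component (-5.32, 6.31 and -3.95). On the second it has -38.9, against -25.3, -36.6 and -18.4 at 24 months and 10 and 10.1 in the other 6-month libraries. Its macrophage and granulocyte markers (13 of 18 with a mean of at least 1 FPKM) sum to 1076 FPKM, against 336 and 316 FPKM in the other 6-month libraries, and its hepatocyte markers (9 of 15) sum to 200.3 FPKM, against 5.84 and 13.6 FPKM. Its endothelial and endocardial markers (7 of 20) sum to 436 FPKM, against 701 and 806 FPKM. Hepatocyte markers are highest in another library: they sum to 690.3 FPKM in replicate 2 of 12 months, against 11.96 and 26.6 FPKM in the other 12-month libraries. Of 21 heart muscle markers found, 11 had a mean of at least 1 FPKM. myl7, a heart myosin light chain, ranged from 24.7 to 190.3 FPKM and nppa, a natriuretic peptide, from 3120 to 7022 FPKM. The level of myl7 is uncertain, because an unnamed locus overlaps it on the same strand. Other heart muscle markers were near 0, such as vmhc with a mean of 0.105 FPKM and tnnt2a with 0.109 FPKM, both also overlapped by unnamed loci. The vessel gene kdrl ranged from 67.5 to 121 FPKM, and the neuron marker elavl3 did not exceed 0.329 FPKM. Of the markers that define other lineages, cdh5 (endothelium) and hbaa1 (red cells) are listed at 0 in all 12 libraries, and both share their strand with an overlapping unnamed locus.

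Of the 7 genes, 4 passed the filter of 1 FPKM: rcan1a, rcan2, rcan3 and ppp3cca. In these hearts rcan1a had the highest mean level, 63.4 FPKM over the 12 libraries, followed by rcan2 with 36.2 FPKM, rcan3 with 26.2 FPKM and ppp3cca with 6.45 FPKM. The other catalytic genes were close to the detection limit, with means of 0.407 FPKM for ppp3cb, 0.151 FPKM for ppp3ca and 0.0272 FPKM for ppp3ccb.

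**Figure D1:**
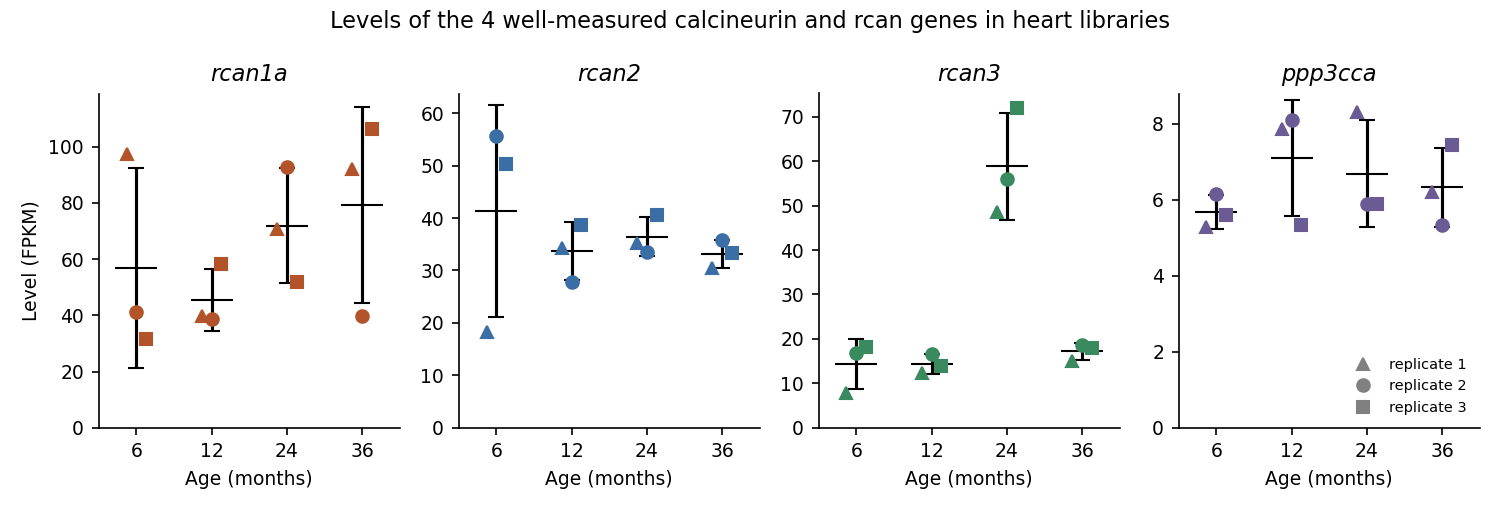
Level in FPKM (vertical axis, from 0) of rcan1a, rcan2, rcan3 and ppp3cca at each age in months (horizontal axis). Each point is a library, with its replicate number as the marker shape, and bars are the mean and SD of 3 libraries. The rcan3 libraries of 24 months lie between 48.5 and 72.0 FPKM, above the 9 libraries of the other ages, of which the highest is 18.7 FPKM.

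rcan3, on chromosome 17 (bases 26861334 to 26908186, minus strand, GRCz11; ENSDARG00000032623), had a single high age. It encodes the regulator of calcineurin 3, which in human cells binds calcineurin through the motif shared by the family. At 6 months it had 7.84, 16.8 and 18.3 FPKM in replicates 1, 2 and 3, and at 12 months 12.4, 16.7 and 14.0 FPKM. At 24 months it had 48.5, 55.9 and 72.0 FPKM, and at 36 months 15.05, 18.7 and 17.9 FPKM. The 3 libraries of 24 months were all above the 9 others, and the libraries of 6, 12 and 36 months overlapped each other. The lowest library of 24 months was 2.59 times the highest of any other age. Of all genes tested, 1.59% also had every library of 24 months above the 9 others.

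The means of rcan3 were 14.3 ± 5.65, 14.4 ± 2.15, 58.8 ± 12.0 and 17.2 ± 1.94 FPKM at 6, 12, 24 and 36 months (SD, n = 3 each). In order of level, 6, 12 and 36 months did not differ beyond the spread of their libraries, and 24 months was highest with 3.84 times the mean of the 9 other libraries. In bulk tissue, a change in the number of cells that make a transcript and a change in the amount per cell cannot be told apart. The 10386 reads assigned to rcan3 range from 294 to 2218 per library, so counting error is small beside the spread between libraries.

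On the log2(FPKM + 1) scale the difference of rcan3 was 2.03 ± 0.27 between 24 and 6 months (SE; 95% interval 1.44 to 2.62), a ratio of means of 4.11. In a fit of only these 2 ages, which called 0.0123% of all genes, rcan3 was not past the threshold. Between 24 and 12 months it was 1.95 ± 0.27 (1.36 to 2.54), and between 36 and 24 months it was -1.70 ± 0.27 (-2.29 to -1.11), a ratio of 0.293. Only 33 of the genes tested had a larger rise between 24 and 6 months, and 35 between 24 and 12 months, while 95 had a larger fall between 36 and 24 months. Between 36 and 6 months the difference was 0.33 ± 0.27, and between 12 and 6 months 0.08 ± 0.27, both with intervals that include 0. Without replicate 1 of 6 months, the lowest of the 12 libraries, these were -0.03 ± 0.18 and -0.28 ± 0.18.

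rcan3 was the only one of the 4 genes past the threshold in any pair of ages, in the 3 pairs that include 24 months. The share of all genes past the threshold was 0.709% between 24 and 6 months (0.425% higher), 0.715% between 24 and 12 months (0.487% higher) and 1.12% between 36 and 24 months (0.635% lower). It was 8.25% between 36 and 6 months, 0.0185% between 12 and 6 months and 3.14% between 36 and 12 months, and in these pairs none of the 4 was past it by limma or by voom, and none had an unadjusted p under 0.05. In the F test over the 4 ages, 5.28% of genes were past the threshold, rcan3 among them. Since the genes were chosen with results known, nothing is read from these counts.

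The direction of the rcan3 difference held without each library in turn, with log2 differences of 1.67 to 2.23 between 24 and 6 months, 1.798 to 2.079 between 24 and 12 months and -1.83 to -1.55 between 36 and 24 months. Its side of the threshold did not. The call was lost between 24 and 6 months without replicate 2 of 24 months, and between 24 and 12 months without replicate 1 or 2 of 12 months or any 1 library of 24 months. It was lost between 36 and 24 months when any 1 library of either age was left out.

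**Figure D2:**
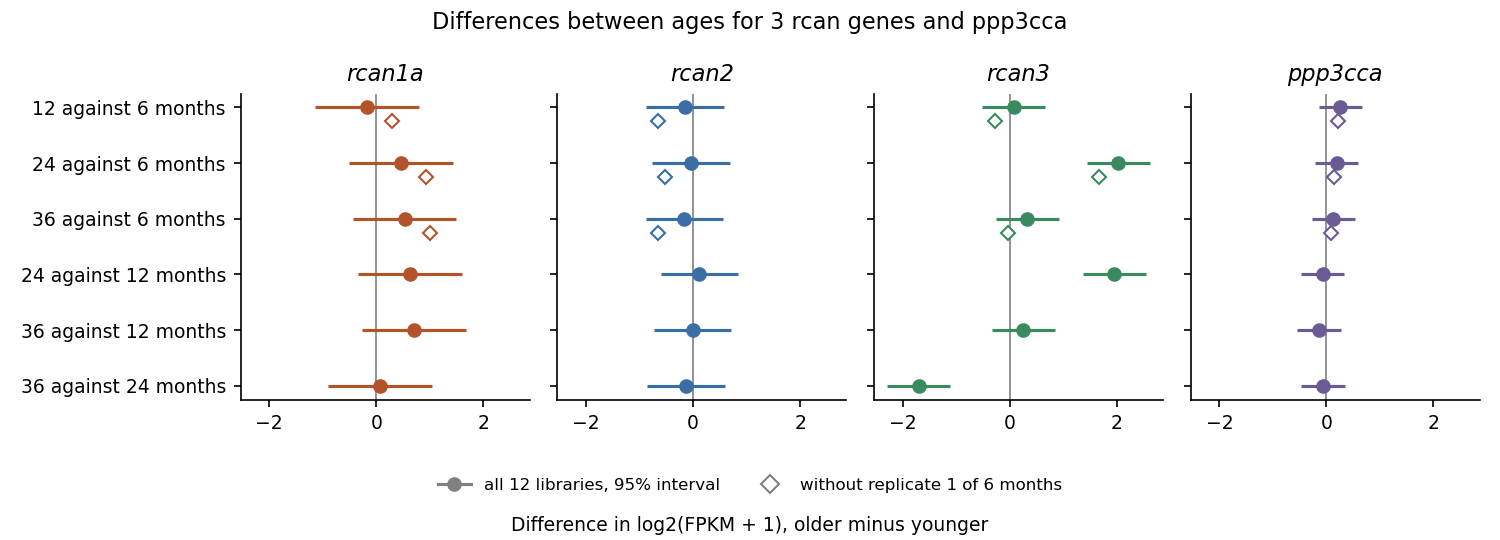
Differences in log2(FPKM + 1), older minus younger age (horizontal axis), for the 6 pairs of ages (vertical axis) in rcan1a, rcan2, rcan3 and ppp3cca. Filled points with lines are the difference over all 12 libraries and its 95% interval. Open diamonds, drawn only for the pairs that include 6 months, are the same difference without replicate 1 of 6 months. The intervals that exclude 0 are those of rcan3 between 24 and 6, 24 and 12, and 36 and 24 months.

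rcan1a, on chromosome 9 (bases 36034547 to 36056343, plus strand; ENSDARG00000003109), is the zebrafish counterpart of mammalian RCAN1, the family member known for feedback from NFAT. At 6 months it had 97.4, 41.2 and 31.7 FPKM in replicates 1, 2 and 3, and at 12 months 39.7, 38.6 and 58.1 FPKM. At 24 months it had 70.7, 92.9 and 52.0 FPKM, and at 36 months 91.9, 39.9 and 106 FPKM. High and low libraries occur within most ages, and every pair of ages overlapped. Its means were 56.8 ± 35.5, 45.5 ± 10.96, 71.9 ± 20.5 and 79.3 ± 34.9 FPKM at 6, 12, 24 and 36 months (SD, n = 3 each), and neighbours in this order did not differ beyond their spread.

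Its largest difference between ages was 0.70 ± 0.44 on the log2 scale, between 36 and 12 months (SE; 95% interval -0.27 to 1.67). The libraries of 1 age scatter more for rcan1a than for most genes: its moderated residual SD was 0.54 on the log2 scale, and 13.8% of the genes tested had a larger one. Replicate 1 of 6 months carries much of the 6-month value. Without it, the difference between 36 and 6 months was 0.996 ± 0.391 in place of 0.53 ± 0.44, and that between 12 and 6 months was 0.30 in place of -0.17. That library also stands apart in its macrophage, hepatocyte and endothelial markers, and their part in the rcan1a level was not tested.

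rcan2, on chromosome 20 (bases 39150595 to 39285597, minus strand; ENSDARG00000021869), encodes a regulator that is known in mammals from brain, heart and muscle. At 6 months it had 18.2, 55.6 and 50.3 FPKM in replicates 1, 2 and 3, and at 12 months 34.4, 27.8 and 38.7 FPKM. At 24 months it had 35.2, 33.4 and 40.7 FPKM, and at 36 months 30.5, 35.8 and 33.4 FPKM. The lowest and the highest of the 12 values both lie at 6 months, where replicate 1 is below every other library and replicates 2 and 3 are above every other library. Means were 41.3 ± 20.2, 33.6 ± 5.52, 36.4 ± 3.77 and 33.2 ± 2.67 FPKM at 6, 12, 24 and 36 months (SD, n = 3 each), so no neighbours in order of level differed beyond their spread.

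With all libraries the log2 difference of rcan2 was -0.16 ± 0.33 between 36 and 6 months (SE; 95% interval -0.89 to 0.56) and -0.03 ± 0.33 between 24 and 6 months. Without replicate 1 of 6 months these became -0.66 ± 0.15 and -0.53 ± 0.15, and the first was then past the threshold, as were 6.92% of all genes in the lower direction. Between ages other than 6 months the differences ran from -0.13 to 0.12. The size of the rcan2 differences with 6 months thus depends on 1 library, which differs from its group in rcan1a, rcan3 and the macrophage, hepatocyte and endothelial markers as well.

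A locus without a name lies on the opposite strand and shares 4 bases with rcan2. It averaged 17.9 FPKM, had 7.91, 30.7 and 22.8 FPKM in replicates 1, 2 and 3 of 6 months, and correlated with rcan2 over the 12 libraries with a Pearson r of 0.926, as a description. Whether reads were counted by strand is not given in the sources used here, so reads that reach the 4 shared bases may not be separated. The length of rcan2 used for its FPKM is 3418 bases, and the part of such reads in the r was not tested.

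Among the rcan genes themselves, the deviations of the libraries from their age means moved against or with each other. Over the 12 libraries, and as a description of points that share library and depth, these deviations had a Pearson r of -0.66 between rcan1a and rcan2, of -0.74 between rcan1a and rcan3 and of 0.82 between rcan2 and rcan3. The plain correlations were -0.56, 0.08 and 0.33 in the same pairs. In replicate 1 of 6 months, rcan1a was the highest of its age while rcan2 and rcan3 were the lowest of theirs. The libraries of 6 months weigh most in the deviations of rcan2 and rcan3. For rcan2 the SD was 48.9% of the mean at 6 months, against 8.02% to 16.4% at the other ages. For rcan3 it was 39.5%, against 11.2% to 20.5%. The r values without 6 months were not computed, so they are not read as a pattern of all ages.

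Summed over rcan1a, rcan2 and rcan3, the level was 112 ± 11.6, 93.5 ± 15.2, 167 ± 14.1 and 130 ± 32.2 FPKM at 6, 12, 24 and 36 months (SD, n = 3 each). rcan3 made up 31.4%, 30.7% and 43.7% of that sum in replicates 1, 2 and 3 of 24 months, and at most 20.1% in the 9 other libraries. rcan1a held the largest share in 9 of the 12 libraries, and its share ranged from 31.6% to 78.9%.

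**Figure D3:**
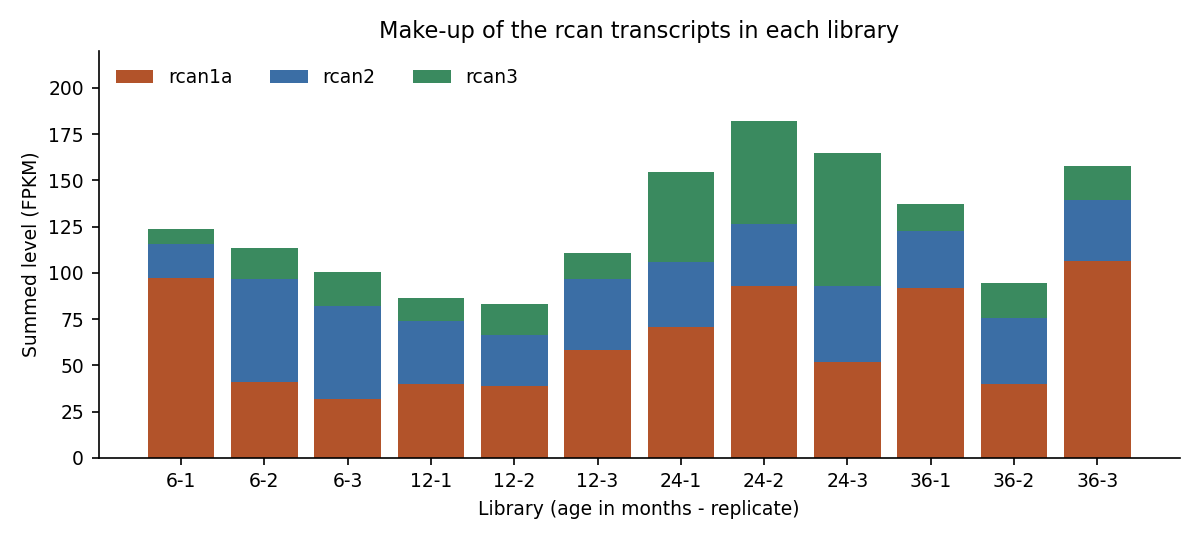
Summed level of rcan1a, rcan2 and rcan3 in FPKM (vertical axis, from 0) in each of the 12 libraries (horizontal axis, age in months and replicate number), stacked by gene. The rcan3 segment is taller in the 3 libraries of 24 months, where it makes up 30.7% to 43.7% of the bar, than in the 9 others, and rcan1a makes up 78.9% of the bar in replicate 1 of 6 months.

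Of the catalytic subunits, ppp3cca, on chromosome 5 (bases 27324194 to 27394532, minus strand; ENSDARG00000014962), carried nearly all of the signal. It is named after the mammalian gamma isoform of the catalytic subunit. It had 5.27, 6.15 and 5.62 FPKM in replicates 1, 2 and 3 of 6 months, and 7.88, 8.09 and 5.35 FPKM at 12 months. It had 8.31, 5.88 and 5.88 FPKM at 24 months, and 6.20, 5.35 and 7.43 FPKM at 36 months. The ages overlap throughout, and the highest library is 1.58 times the lowest.

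Mean ppp3cca levels were 5.68 ± 0.441, 7.11 ± 1.52, 6.69 ± 1.40 and 6.33 ± 1.05 FPKM at 6, 12, 24 and 36 months (SD, n = 3 each). The log2 difference between 36 and 6 months was 0.13 ± 0.18 (SE; 95% interval -0.28 to 0.53), between 24 and 6 months 0.19 ± 0.18 and between 12 and 6 months 0.26 ± 0.18. All 6 intervals include 0, and none reaches beyond 0.67 in either direction. The libraries scattered less than for most genes, with a moderated residual SD of 0.22, which 71.5% of the genes tested exceeded. Replicate 1 of 6 months, which stands apart for the rcan genes, was the lowest of the 12 libraries for ppp3cca by a narrow margin.

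ppp3cb, on chromosome 14 (bases 7482647 to 7582339, minus strand; ENSDARG00000025106), is the beta isoform, the one tied to heart enlargement in mice. It rested on 7 to 20 reads per library. It had 0.389, 0.427 and 0.340 FPKM in replicates 1, 2 and 3 of 6 months, and 0.224, 0.217 and 0.311 FPKM at 12 months. It had 0.278, 0.466 and 0.458 FPKM at 24 months, and 0.668, 0.608 and 0.504 FPKM at 36 months. The 3 libraries of 36 months were above the 9 others, as they were for 2.36% of the 39378 genes with any read. In reads they were not: they had 18, 20 and 16, against 19 in replicate 2 of 24 months. The order in FPKM thus rests on few reads and on the scaling to library size. Because ppp3cb lies under 1 FPKM it was not in the test, and in the fit with no filter it was not past the threshold in any pair of ages. That fit too was on log2(FPKM + 1), which understates changes at this level. Between 36 and 12 months the ratio of means was 2.37, but the log2 difference was 0.35 ± 0.12 (SE). Nothing is therefore read from the lack of a call.

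ppp3ca, on chromosome 21 (bases 28921285 to 29039213, plus strand; ENSDARG00000004988), is the alpha isoform, prominent in mammalian brain. It had 71 reads in all, 2 to 9 per library, and 0.0657 to 0.223 FPKM. The libraries of 24 months, at 0.174 to 0.197 FPKM, were all above those of 6 months, at 0.116 to 0.150 FPKM, as they were for 6.74% of the genes with any read. They overlapped those of 12 months, at 0.0823 to 0.223 FPKM, and of 36 months, at 0.0657 to 0.195 FPKM. In reads, ppp3ca had 8, 8 and 6 in replicates 1, 2 and 3 of 24 months, and 6, 4 and 6 in those of 6 months. In the fit with no filter it was not past the threshold in any pair of ages. Nothing is read from that either, since log2(FPKM + 1) understates changes at this level.

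ppp3ccb, the second gamma gene, on chromosome 10 (bases 20222758 to 20279712, plus strand; ENSDARG00000057456), had 14 reads in all and none in 6 libraries, among them all 3 of 24 months. A count of 0 allows up to 3 reads, or 0.0541 to 0.0778 FPKM, in the libraries of 24 months, for counting error only. Its low count is uncertain, because it alone of the 7 genes has an unnamed locus over it on the same strand, itself listed at 0.

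Of the summed level of the 4 catalytic genes, ppp3cca made up 91.5% ± 0.529, 94.1% ± 2.29, 91.6% ± 2.56 and 88.6% ± 2.04 at 6, 12, 24 and 36 months (SD, n = 3 each). The summed level of the rcan genes was 18.2 ± 2.67, 13.1 ± 5.16, 23.6 ± 5.38 and 18.02 ± 2.30 times that of the catalytic genes at the same ages. The libraries of 24 months ranged from 17.6 to 28.0 times and overlapped those of the other ages. These are ratios of transcripts and not of proteins.

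Likeness was ranked by the correlation of log2 levels, and loci without a name or with only a clone name were passed over in choosing which to name. The named genes most like rcan3 over the 12 libraries were lhfpl2a, adam19b and arntl2, with Pearson r of 0.95, 0.93 and 0.93. lhfpl2a encodes a membrane protein, adam19b a membrane-bound metalloproteinase that is overlapped by a locus without a name and so uncertain, and arntl2 a transcription factor of the daily clock. Their means were 17.0, 15.3, 32.7 and 18.01 FPKM for lhfpl2a, 1.45, 1.38, 4.33 and 1.21 FPKM for adam19b and 1.005, 1.15, 3.66 and 1.77 FPKM for arntl2, at 6, 12, 24 and 36 months. Part of these r values comes from the high age itself: among the deviations from the age means, they were 0.61, 0.70 and 0.64.

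Further down that order, 2 more clock genes were picked out after their values had been seen. The other genes near them in that order, and the other clock genes, are not given here. Nothing is therefore read about clock genes as a group. clocka, the partner of arntl proteins, was 8th of all genes with an r of 0.90, and arntl1b, another arntl gene, was 12th with an r of 0.89. Among deviations from the age means the r was 0.58 for clocka and 0.89 for arntl1b. arntl1b had 0.730, 6.28 and 4.55 FPKM in replicates 1, 2 and 3 of 6 months, and 4.08, 4.92 and 6.28 FPKM at 12 months. It had 13.05, 13.1 and 16.1 FPKM at 24 months, and 5.67, 7.59 and 7.47 FPKM at 36 months. Like rcan3, it was lowest in replicate 1 of 6 months and highest at 24 months. The hour at which hearts were taken is not in the labels, so age and time of day cannot be told apart.

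**Figure D4:**
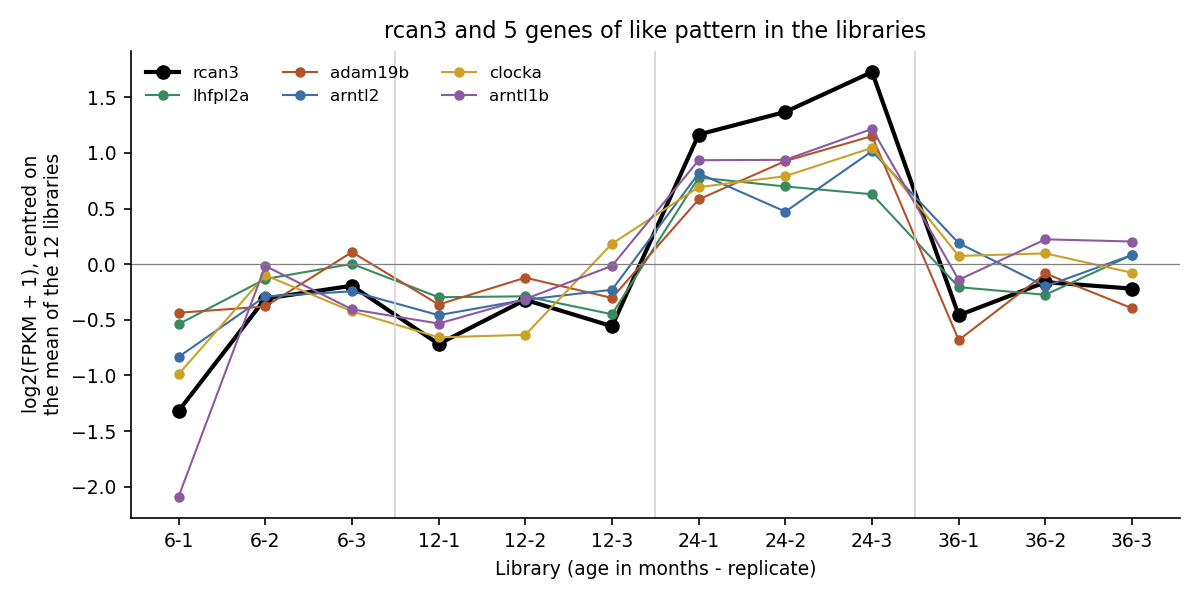
log2(FPKM + 1) of rcan3 and of lhfpl2a, adam19b, arntl2, clocka and arntl1b, each centred on its mean of the 12 libraries (vertical axis), in each library (horizontal axis, age in months and replicate number). Lines join the points of a gene to make them easier to follow, and vertical lines separate the ages. All 6 genes have their 3 highest values at 24 months, and all but adam19b have their lowest in replicate 1 of 6 months.

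The named genes most like rcan1a were cdcp1a, fzd7a, a Wnt receptor, and arl10, with r of 0.89, 0.89 and 0.88. For rcan2, where 2 unnamed loci with r of 0.93 were passed over, they were SEMA4D, adam23a and sema5a, with r of 0.93, 0.91 and 0.90, of which SEMA4D and sema5a encode semaphorins. In these 3 genes, as in rcan2, replicate 1 of 6 months was lowest of the 12 libraries: sema5a had 2.76 FPKM there, against 14.3 and 13.6 FPKM in replicates 2 and 3. For ppp3cca the nearest were bnip2, arf2a and dhrs13a.1, with r of 0.89, 0.87 and 0.86, and bnip2 is overlapped by a locus without a name.

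Neighbours of rcan3 did not show a rise of its size at 24 months. nipal3, which lies 1841 bases away on the same strand, had means of 17.8, 20.4, 23.6 and 23.0 FPKM at 6, 12, 24 and 36 months. Its mean too was highest at 24 months, with 36 months close to that level. jade1, on the other side, had 10.4, 8.60, 8.43 and 11.7 FPKM at the same ages. Neither was past the threshold in any comparison.

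Markers of other cell types were set beside the rcan3 peak. In none of 11 marker lists did the summed levels of the 3 libraries of 24 months lie outside those of all 9 others. Macrophage and granulocyte markers summed to 953 to 2054 FPKM at 24 months and 316 to 1955 FPKM at the other ages, and skeletal muscle markers (5 of 18 genes with a mean of at least 1 FPKM) to 597 to 1000 FPKM and 170.1 to 827 FPKM. Red blood cell markers (4 of 11) summed to 1211 to 2949 FPKM at 24 months and 2171 to 6673 FPKM at the other ages. Both of these last sums rest mostly on a single gene. acta1a averaged 508 FPKM over all libraries, and the other skeletal muscle markers of at least 1 FPKM averaged 1.44 to 4.30 FPKM. hbba2 averaged 3650 FPKM, and the next red blood cell marker, alas2, 39.2 FPKM. Thrombocyte markers (2 of 8) summed to 45.7 to 50.5 FPKM and 24.3 to 47.4 FPKM. The fast skeletal myosin gene myhz2 was at most 0.0300 FPKM in any library. In pairs that include 24 months, only the following genes tested on these lists were past the threshold. Of 13 macrophage or granulocyte markers tested, 1 was past it between 24 and 6 months, as were 0.709% of all genes. Of 2 thrombocyte markers tested, 1 was past it between 36 and 24 months, as were 1.12% of all genes. The part of the markers on these lists in the rcan3 level was not tested.

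Other genes of the calcineurin pathway were taken from a list of 100 symbols, of which 95 matched, giving 96 genes. This list too was written with results of these libraries known, so its adjusted p-values, taken over all genes tested, are not independent evidence. Unnamed loci overlap 46 of these on the same strand, 9 of them among the 41 genes that could be tested. Past the threshold were 5 of 41 genes between 36 and 6 months, 4 between 36 and 12 months, 2 between 24 and 6 months, 2 between 24 and 12 months and 1 between 36 and 24 months, all higher in the older hearts. Over all genes tested, 3.95%, 1.78%, 0.425%, 0.487% and 0.481% were past it in that direction in the same pairs. None was past it between 12 and 6 months, where 6 had an unadjusted p under 0.05 (3 higher, 3 lower) and voom also called 0. No gene of the list was past it in the lower direction in any pair by limma or by voom, and 2 to 5 per pair were lower at an unadjusted p under 0.05. The median log2 difference of the list between 36 and 6 months was 0.09, against 0 over all genes tested, and between 24 and 6 months 0.19, against -0.01. The 5 genes between 36 and 6 months include fkbp1aa, whose mean passed the filter of 1 FPKM only through 24 and 36 months.

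Upstream of the enzyme, calcium entry genes had 2 of 4 tested members past the threshold in at least 1 pair of ages. This count and those of the other roles below are over any pair of ages. The share of all genes past the threshold in any pair was not computed, so nothing about a role is read from them. orai2 encodes a pore of the store-operated calcium channel. It had 6.78, 7.34 and 8.56 FPKM in replicates 1, 2 and 3 of 6 months, and 7.16, 9.65 and 9.14 FPKM at 12 months. It had 15.7, 19.4 and 17.5 FPKM at 24 months, and 18.3, 14.7 and 17.9 FPKM at 36 months. The libraries of 24 and 36 months were all above those of 6 and 12 months, and the share of all genes with that order was not computed. orai2 rose by 1.07 ± 0.15 on the log2 scale between 36 and 6 months (limma, adjusted p = 0.00457).

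orai2 also rose between 24 and 6 months by 1.11 ± 0.15 (adjusted p = 0.0112), between 24 and 12 months by 0.94 ± 0.15 (adjusted p = 0.0225) and between 36 and 12 months by 0.90 ± 0.15 (adjusted p = 0.0133). Without replicate 2 of 24 months the first of these had an adjusted p of 0.0613. Without replicate 1 or 2 of 12 months or any library of 24 months the second reached up to 0.112, and without replicate 1 of 12 months the last had 0.0604. The libraries of 36 and 24 months overlapped.

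trpc6a encodes a cation channel that in mouse heart acts upstream of calcineurin. Its mean was 10.7 ± 3.69, 4.88 ± 0.677, 13.8 ± 1.98 and 13.9 ± 2.14 FPKM at 6, 12, 24 and 36 months (SD, n = 3 each), so 12 months was the low age. It rose by 1.33 ± 0.23 between 24 and 12 months (adjusted p = 0.034) and by 1.33 ± 0.23 between 36 and 12 months (adjusted p = 0.0168). Leaving out replicate 2 of 36 months or any library of 12 or 24 months ended the first call (adjusted p up to 0.138), and leaving out replicate 1 of 12 months or replicate 2 or 3 of 36 months ended the second (up to 0.0733).

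Of the calmodulins, which carry calcium to the enzyme, 1 of 6 was past the threshold. calm1b averaged 20.3 ± 1.36, 20.1 ± 2.34, 29.6 ± 5.17 and 32.7 ± 6.03 FPKM at 6, 12, 24 and 36 months (SD, n = 3 each) and rose by 0.65 ± 0.16 between 36 and 6 months (adjusted p = 0.035). That call was lost without replicate 2 or 3 of 6 months, replicate 2 of 12 months, replicate 3 of 24 months or any library of 36 months, with an adjusted p of up to 0.107. The regulatory B subunit was not past the threshold in either gene by limma or by voom. At an unadjusted p under 0.05 (limma), 1 of the 2 genes was higher between 24 and 6 months and between 24 and 12 months. Between 36 and 24 months 1 was lower. The higher one was ppp3r1a, since the mean of ppp3r1b was lower at 24 months. An unnamed locus overlaps ppp3r1a, which averaged 23.3 FPKM over the 12 libraries. ppp3r1b had 40.3 ± 3.10, 39.7 ± 4.88, 34.9 ± 3.31 and 35.2 ± 1.86 FPKM at the 4 ages (SD, n = 3 each). Per length, this is several times the level of ppp3cca.

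Among the kinases that put phosphates back on NFAT, 1 of 5 tested was past the threshold. dyrk1aa, a DYRK1A gene, had means of 11.9 ± 2.17, 14.2 ± 0.773, 28.3 ± 3.80 and 33.3 ± 7.54 FPKM at 6, 12, 24 and 36 months (SD, n = 3 each). It rose by 1.40 ± 0.19 between 36 and 6 months (adjusted p = 0.00358), by 1.15 ± 0.19 between 36 and 12 months (adjusted p = 0.0124) and by 1.19 ± 0.19 between 24 and 6 months (adjusted p = 0.0212). The second was lost without replicate 1 of 12 months (0.057), and the last without replicate 3 of 6 months or any library of 24 months (up to 0.0908). Its level is uncertain, because an unnamed locus covers part of it on the same strand.

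Of the substrates of calcineurin other than NFAT, 1 of 7 tested was past the threshold. foxo1a, a forkhead transcription factor, had 12.8, 7.33 and 6.84 FPKM in replicates 1, 2 and 3 of 6 months, and 15.1, 25.4 and 16.9 FPKM at 12 months. It had 12.2, 13.9 and 17.3 FPKM at 24 months, and 64.6, 75.9 and 53.5 FPKM at 36 months. The libraries of 36 months were all above the 9 others, as they were for 2.36% of the 39378 genes with any read. That set includes genes too low to be tested, and the share among the genes tested was not computed. foxo1a rose by 2.75 ± 0.25 between 36 and 6 months (adjusted p = 0.000655), by 1.73 ± 0.25 between 36 and 12 months (adjusted p = 0.00936) and by 2.09 ± 0.25 between 36 and 24 months (adjusted p = 0.00492), in each case also without any 1 library.

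Of the inhibitors, anchors and binding proteins other than rcan, 1 of 7 tested was past the threshold. fkbp1aa, a gene for the FK506-binding protein, averaged 0.584 ± 0.119, 0.816 ± 0.490, 1.43 ± 0.373 and 2.08 ± 0.532 FPKM at 6, 12, 24 and 36 months (SD, n = 3 each), a low level in a gene overlapped by a locus without a name. It rose by 0.95 ± 0.24 between 36 and 6 months (adjusted p = 0.0366), a call lost without replicate 2 or 3 of 6 months, replicate 1 or 3 of 24 months or any library of 36 months (up to 0.114). Its mean over the 12 libraries, 1.23 FPKM, passed the filter of 1 FPKM only through the higher levels of 24 and 36 months. The gene was thus admitted through the ages where it is high, and nothing is read from its call. Of the calsarcins, muscle proteins that tie calcineurin to the Z disc, myoz2b averaged 97.8 FPKM over the 12 libraries and myoz1a 5.83 FPKM, and myoz2b is overlapped by an unnamed locus that is listed at 0. Of 5 unnamed loci with a calsarcin domain, 4 are listed at 0, and the one that overlaps myoz1b had 2.14 to 6.96 FPKM at 24 months and 0.333 to 2.84 FPKM at the other ages.

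Other settings also ended some of these calls. With replicate number as a block, the calls of calm1b and fkbp1aa, of dyrk1aa between 24 and 6 months and of orai2 and trpc6a between 24 and 12 months were lost. In fits of only the 2 ages compared, the calls of calm1b and fkbp1aa and those of orai2 and dyrk1aa other than between 36 and 6 months were lost. With no filter on low values, calm1b, fkbp1aa and trpc6a between 24 and 12 months were no longer past the threshold, and voom ended the call of fkbp1aa.

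In 3 groups downstream of the enzyme and in the calmodulin-dependent kinases, no tested gene was past the threshold in any comparison by limma or by voom, and 0 to 2 genes of a group had an unadjusted p under 0.05 in a pair of ages. Most genes of these groups could not be tested, among the targets in heart or muscle 4 of 8. Unnamed loci overlap 2 of 7 NFAT genes, 4 of 6 MEF2 genes, 5 of 8 targets and 6 of 12 kinases on the same strand. The counts therefore do not describe a group as a whole. nfatc3a, the NFAT gene with the highest level, had means of 5.58, 6.24, 7.49 and 6.92 FPKM at 6, 12, 24 and 36 months, and 2 of 7 NFAT genes could be tested. mef2ab, the only MEF2 gene that could be tested, had 1.07, 1.52, 1.09 and 0.758 FPKM. nppa, used in mammals as a readout of the pathway in heart muscle, had 4772 ± 458, 6054 ± 838, 4244 ± 415 and 3853 ± 655 FPKM (SD, n = 3 each). Of 12 calmodulin-dependent kinases, 3 could be tested. Between 36 and 6 months 2 of these were higher at an unadjusted p under 0.05 (limma), and the median log2 difference of the 3 was 0.66. camk1b, the one with the highest level, was not among those 2 and had 9.33, 10.8, 11.8 and 8.17 FPKM.

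**Figure D5:**
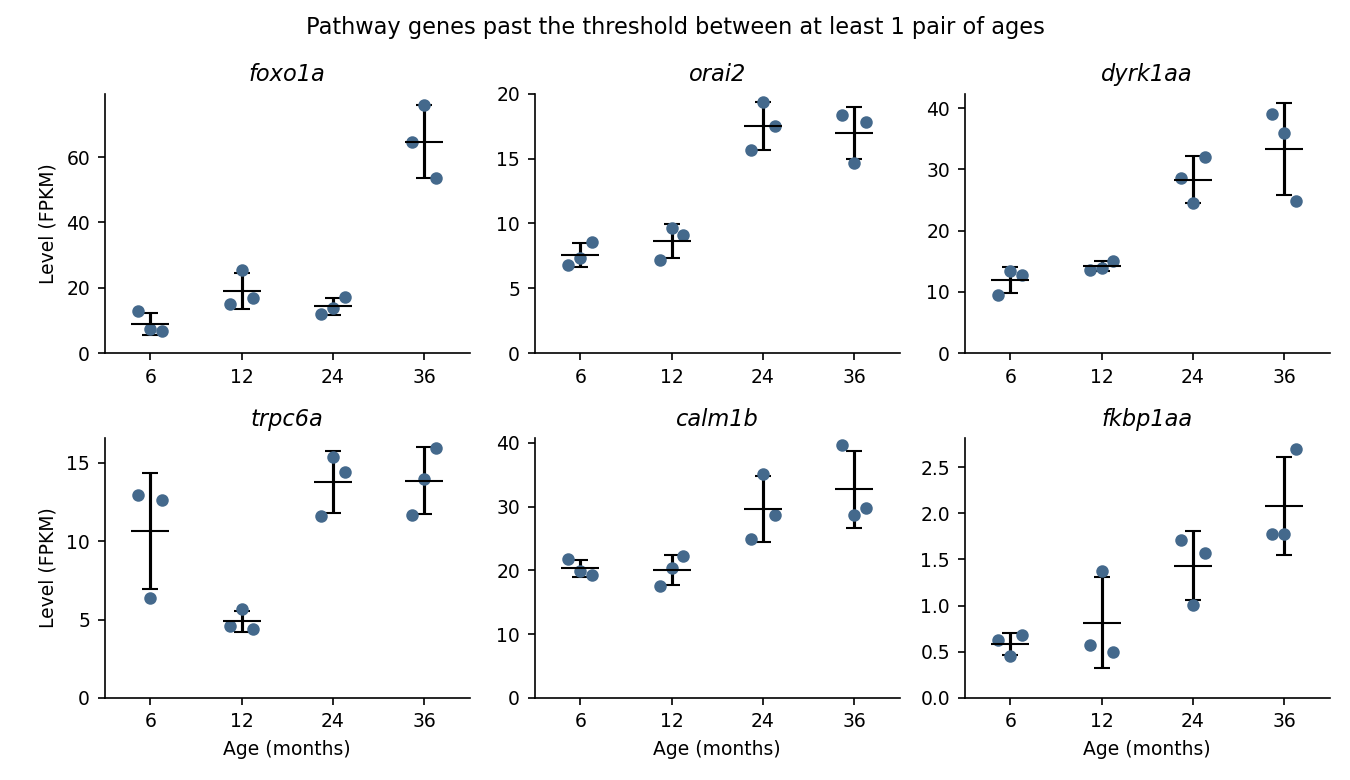
Level in FPKM (vertical axes, from 0) at each age in months (horizontal axes) of the 6 pathway genes past the threshold between at least 1 pair of ages. Points are libraries, in order of replicate number within an age, and bars are the mean and SD of 3 libraries. orai2 and dyrk1aa are high at both 24 and 36 months, foxo1a at 36 months, where its libraries lie between 53.5 and 75.9 FPKM, and trpc6a is low at 12 months.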

How the data were processed

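Hearts of zebrafish at 4 ages were sequenced, 3 libraries per age. The authors deposited FPKM values per gene. Base calling with CASAVA 1.8 and alignment with HISAT2 2.0.5 to GRCz11 are named in the submitters' processing notes. The counting tool, the annotation release and the total by which each library was divided are not given in the sources used here. FPKM times gene length gave whole reads within 0.01 read for 100% of values, with 0.0878 to 0.136 FPKM per read at 1 kilobase.

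The calcineurin and rcan genes, the gene lists and the comparisons were chosen with earlier results of these data known. Genes with a mean of at least 1 FPKM over the 12 libraries (16223) were fitted on log2(FPKM + 1) with 4 age means in limma 3.58.1 (R 4.3.3; eBayes with trend, 8 residual degrees of freedom before moderation). Tests are two-sided, with Benjamini-Hochberg adjustment over all genes tested and a threshold of 0.05. A pseudocount of 1 understates changes of low genes. Named pathway genes are those past the threshold in any pair of ages, or else the highest of their role. Named similar genes are the 3 with the highest Pearson r among genes with a symbol that is no clone or placeholder name. On simulated data for 24 against 6 months, 75% of 2-fold and 93% of 4-fold changes were called, with 13 false calls. The changes were added on the log2(FPKM + 1) scale, only to genes with a mean over 3 on that scale. The noise was normal, drawn separately for each gene and library, with the moderated SD of each gene. These rates therefore do not cover genes of lower level. Nor do they cover shifts that many genes of a library share, as in replicate 1 of 6 months. Alternatives were a pseudocount of 0.1, no filter, median-ratio size factors, voom on the recovered reads, replicate number as a block, the 2 ages compared alone and each library left out. Tables and figures used Python 3.11.15, numpy 2.4.6, pandas 2.3.3 and matplotlib 3.10.9.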

Additional observations from a re-analysis of the deposited data

How the results depend on the processing

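The only one of the 4 calcineurin and rcan genes past the threshold, rcan3, kept its direction under every alternative in the 3 pairs of ages that include 24 months, and its call except in the fit of the 2 ages alone between 24 and 6 months (0 of the 4 genes, and 2 of all genes) and without single libraries. Without each library in turn, 0 to 1 of the 4 genes was called between 24 and 6, 24 and 12, 36 and 24 and 36 and 6 months, and 1 in the F test. The gene called between 36 and 6 months was rcan2, without replicate 1 of 6 months.

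Over all genes, the counts were 1338 between 36 and 6 months (889 with no filter, 885 with the replicate block, 278 with the 2 ages alone, 479 to 2088 without each library), 115 between 24 and 6 months (49, 50, 2 and 20 to 320) and 3 between 12 and 6 months (0, 0, 0 and 0 to 30). They were 116 between 24 and 12 months (53 with no filter, 41 with the block, 1 to 246 without each library), 510 between 36 and 12 months (277 with the block, 143 with the 2 ages alone, 96 to 967) and 181 between 36 and 24 months (115 with a pseudocount of 0.1, 64 with voom, 64 with the block, 37 to 399). The F test called 857 (433 with no filter, 354 with the block, 310 to 1653).

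In the pathway list, 5 genes between 36 and 6 months became 3 with no filter, with the block or with the 2 ages alone (3 to 8 without each library). Between 24 and 6 months 2 became 1 with the block and 0 with the 2 ages alone (0 to 2), and between 24 and 12 months 2 became 1 with no filter and 0 with the block (0 to 3). Between 36 and 12 months 4 became 2 with the 2 ages alone (1 to 9), and the F test's 5 became 3 with the block (3 to 8). Apart from leaving out libraries, 16 of 84 values for the named pathway genes under another setting lost their call, in orai2, dyrk1aa, trpc6a, calm1b and fkbp1aa, and no called value of these genes changed direction. The cause was not tested. Leaving out libraries and the fit of 2 ages use fewer samples.

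The labels do not say what libraries of the same replicate number share. Deviations of same-numbered libraries correlated by -0.154 to 0.106 over 18 pairs, and 1 pair was over 0.1. Libraries of different numbers were not set beside these, so a shared batch is neither shown nor excluded. Shares of ppp3cca among the catalytic genes moved by less than the SD between libraries when ppp3ccb was left out. Levels of ppp3ca, ppp3cb and ppp3ccb are limited by counts of 0 to 20 reads per library. Groups of 3 libraries are too small to test for outliers.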
